A study of Mus musculus with 6 samples.

Results

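The genes described here are 35 mouse genes of excision repair, mismatch repair and direct repair of alkylated DNA, measured in ovarian granulosa cells (GCs) 6 h after cyclophosphamide (CTX). They were taken by gene symbol from the 54532 genes of the expression table: 16 genes of nucleotide excision repair, 13 of base excision repair, 3 of direct alkyl repair and 3 of mismatch repair. The study asked how CTX changes gene expression in GCs, the somatic cells that surround and support the oocyte. Female ICR mice of 3 weeks received 5 IU of PMSG, a gonadotropin that drives follicle growth, and 22 h later an intraperitoneal injection of PBS (the control group) or of CTX at 120 mg/kg (the CTX group). Each group had 3 samples, each of GCs from the ovaries of 3 mice, so that all 6 samples came from hormone-primed immature mice and differed in the injection. The drug was given to the whole animal, and each value is a mean over a pool of cells from several ovaries.

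CTX is a prodrug that liver enzymes turn into an alkylating mustard, which attaches to guanine and can join the DNA strands. Cells repair damaged bases in several ways. MGMT and the ALKBH enzymes reverse an alkylation directly. Base excision repair begins with a glycosylase that cuts a damaged base from its sugar. Nucleotide excision repair cuts out a short stretch of strand around a bulky lesion. Mismatch repair corrects replication errors and also recognises some alkylated bases that pair wrongly.

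Expression was given as FPKM (fragments per kilobase of gene length and per depth of the library), a scale per length on which levels of different genes can be set side by side. The reads on genes, rebuilt from these values, came to between 16005869 and 18455011 per sample, and the repair genes were covered by between 115 (*Ddb2*) and 15583 (*Ddb1*) reads in a sample. All 8 granulosa markers (*Inha*, *Fshr*, *Foxl2*, *Cyp19a1* and others) were expressed, with a summed level, most of it *Inha*, of 11396 to 12599 FPKM in the PBS samples and 10197 to 10864 FPKM in the CTX samples. The CTX samples were below all PBS samples for 6 of the 8 (beside 14.1% of all genes) and above for 1 (*Amh*, beside 15.0%). The median log2 fold change of the 8 was -0.43, and none was called, beside 1.76% of all genes. *Cyp19a1*, the enzyme that makes estrogen, was at 59.2 to 62.4 FPKM in the PBS samples and at 47.6, 6.61 and 32.5 FPKM in CTX samples 1 to 3. The summed level of 5 leukocyte markers was 18.3 to 21.7 FPKM (PBS) and 31.8, 61.4 and 22.2 FPKM (CTX samples 1 to 3). That of 3 theca markers was 35.3 to 37.9 FPKM against 34.1, 8.61 and 17.6 FPKM, a fall that was that of *Cyp17a1*, since the means of the other two were higher in CTX (median log2 fold change of the 3, 0.40). That of 4 stroma markers was 12.6 to 13.4 FPKM against 25.2, 6.00 and 20.1 FPKM. That of 4 endothelial markers was 4.41 to 5.38 FPKM against 3.85, 1.78 and 4.05 FPKM, though the means of 2 of them were higher in CTX. That of 3 red cell markers was 299 to 429 FPKM against 341, 130 and 467 FPKM. That of 4 oocyte markers was 27.0 to 56.5 FPKM against 35.1, 60.6 and 62.1 FPKM. The means of 4 of the 5 leukocyte markers were higher in CTX (median log2 fold change 0.74, none called). *Lyz2*, most of the leukocyte sum, and *Cd68* had all CTX samples above all PBS samples, beside 15.0% of all genes. *Ptprc*, the marker common to leukocytes, was at 0.0640 to 0.0983 FPKM in the 6 samples, too low to be tested. CTX sample 2 stood apart from the rest, at 74.7 on a first principal component on which the other 5 lay between -26.6 and 13.2. In such bulk samples, a change in the share of a cell type and a change of RNA per cell cannot be told apart. *Cdkn1a*, *Mdm2* and *Ccng1*, which p53 induces after DNA damage, were all higher in the CTX group, with a summed level of 38.8 to 40.4 FPKM in the PBS samples and 130.2 to 189.0 FPKM in the CTX samples.

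All 35 repair genes were expressed above the filter of a mean of 0.5 FPKM, and 1 of them, the mismatch repair gene *Msh6*, was higher in the CTX group at an adjusted p below 0.05 (limma, Benjamini-Hochberg over the 14463 genes tested). That is 2.86% of the repair genes, beside 1.40% of all genes tested. No repair gene was called lower, beside 0.360% of all genes. None was called with a change of more than 2-fold, beside 0.961% of all genes. At an unadjusted p below 0.05 there were 6 repair genes, 4 higher and 2 lower (17.1%, beside 19.6% of all genes), and limma's voom on the rebuilt reads also called 1 higher and 0 lower, beside 1.54% and 0.456% of all genes. With limma's sample weights 7 were called higher and 4 lower, beside 19.4% and 20.4% of all genes, in a fit that did not converge. The 3 CTX samples lay above the 3 PBS samples without overlap for 5 repair genes (14.3%, beside 15.0% of all genes): *Msh6*, *Ercc5*, *Mgmt*, *Apex1* and *Nthl1*. They lay below for 3 (8.57%, beside 14.1%): *Ercc2*, *Gtf2h3* and *Alkbh2*. The other 27 overlapped. These shares were near or below those of all genes, so the counts say nothing particular about repair genes. With 3 samples against 3, a two-sided exact permutation test of a single gene's FPKM cannot go below 0.10, the value of all 8 genes without overlap.

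The sizes of the changes were small. The log2 fold change was positive for 21 repair genes and negative for 14, with a median of 0.0085 beside -0.0081 over all genes tested. It was below 0.25 in size for 28 of the 35 (80.0%, beside 61.1% of all genes), and its median size was 0.10 beside 0.18. Repair genes were also measured more closely than most, with a median standard error of 0.10 on the log2 scale beside 0.13. Their mean levels had a median of 7.50 FPKM beside 6.15 FPKM.

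**Figure D1:**
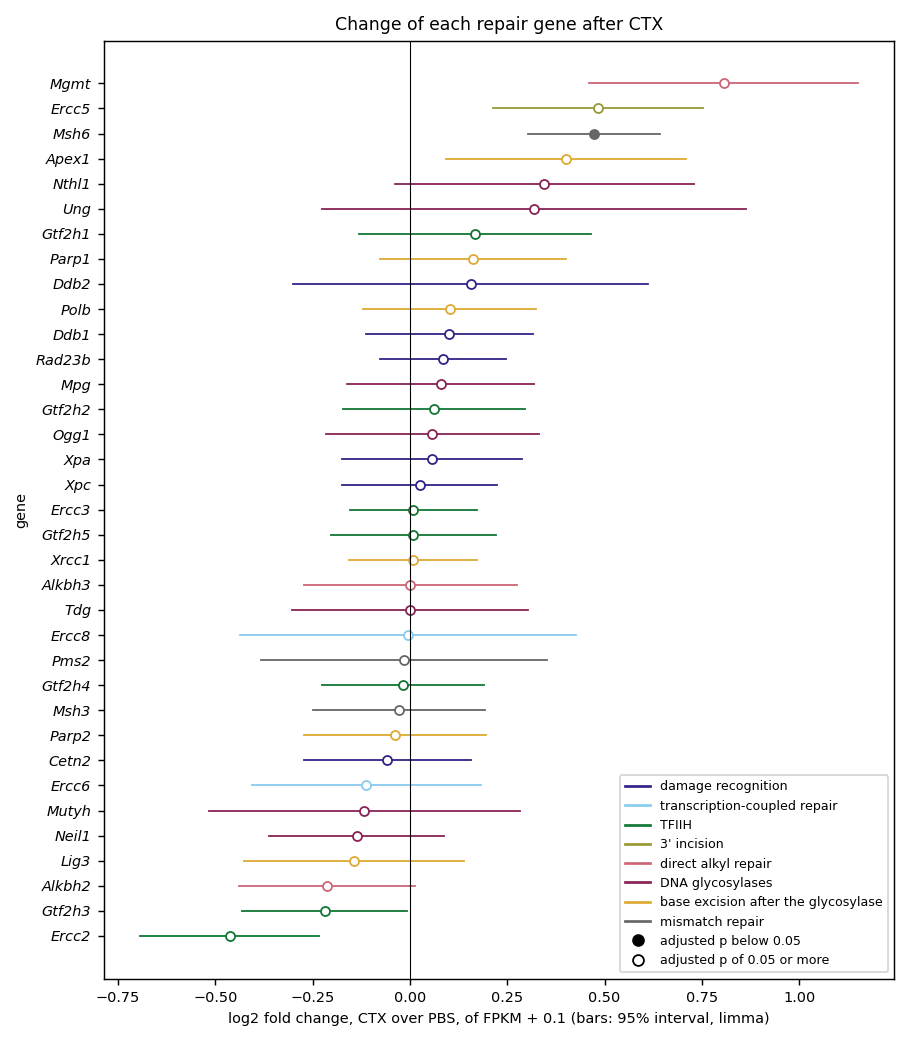
Log2 fold change of each of the 35 repair genes, CTX over PBS, on the log2(FPKM + 0.1) scale, with its 95% interval from limma, sorted by size and coloured by role. The filled point is *Msh6* at 0.47, the gene with an adjusted p below 0.05. Most points sit within 0.25 of the zero line, with *Mgmt* at the top at 0.81 and *Ercc2* at the bottom at -0.46.

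**Figure D2:**
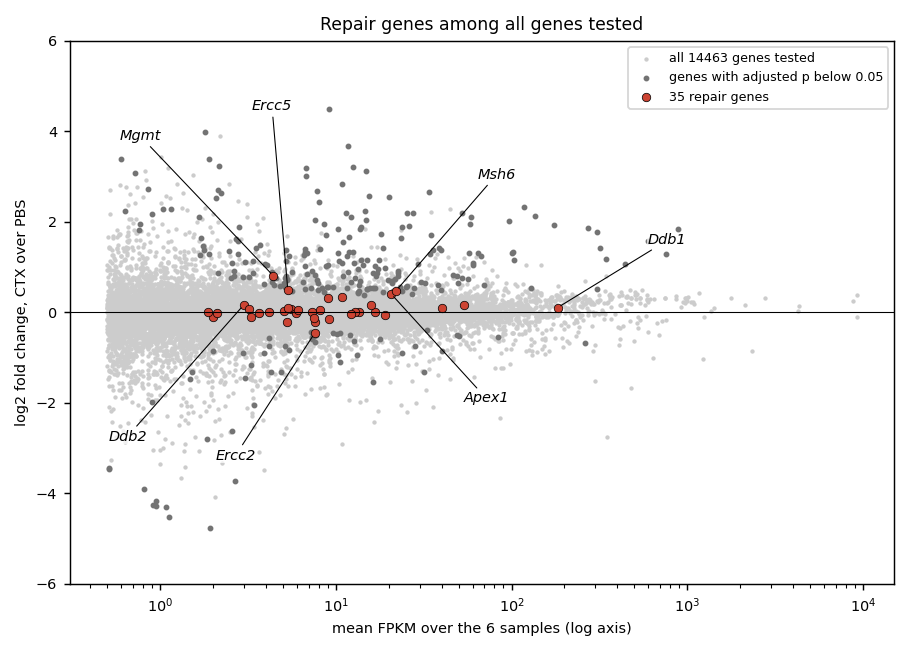
Log2 fold change, CTX over PBS, against mean FPKM over the 6 samples on a log axis, for all 14463 genes tested (light grey), those with an adjusted p below 0.05 (dark grey) and the 35 repair genes (red). The repair genes lie close to the zero line within the grey cloud, from 1.88 FPKM (*Ercc8*) to 183 FPKM (*Ddb1*).

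Mismatch repair held the called gene. MSH6 pairs with a common partner subunit to recognise base mismatches and small loops. *Msh6* (chr17:87975050-87990883, mm10) was at 19.1, 17.0 and 19.2 FPKM in the PBS samples and at 25.5, 25.8 and 25.4 FPKM in the CTX samples. The CTX values were nearly equal and all above the highest PBS value, and PBS sample 2 was the lowest. The mean rose from 18.4 ± 1.23 to 25.6 ± 0.220 FPKM (SD, n = 3), a fold change of 1.39 (95% interval 1.23 to 1.56), log2 0.47 ± 0.07 (SE), with a limma adjusted p of 0.031. Left out in turn, PBS samples 1, 2 and 3 and CTX sample 3 each ended the call (adjusted p = 0.125, 0.140, 0.112 and 0.116), while the adjusted p was 0.050 without CTX sample 1, just under the threshold, and 0.032 without CTX sample 2. The log2 fold change stayed between 0.42 and 0.50 in these 6 fits. Of all genes, the reported fit called 254 in either direction. The fits without PBS samples 1, 2 and 3 and CTX sample 3 called 77, 76, 70 and 106. Those without CTX samples 1 and 2 called 438 and 526. *Msh3*, whose product takes the place of MSH6 for larger loops, was at 3.78, 3.57 and 3.69 FPKM in PBS and 3.56, 3.88 and 3.39 FPKM in CTX, which overlap (fold change 0.981, 95% interval 0.842 to 1.14, adjusted p = 0.882). *Pms2*, a subunit of the endonuclease that acts after recognition, was at 2.38, 2.28 and 1.76 FPKM in PBS and 1.93, 2.14 and 2.23 FPKM in CTX (0.989, 0.766 to 1.28, adjusted p = 0.966). *Msh6* was expressed several times higher than either, per length, in every sample.

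In direct alkyl repair, *Mgmt* showed the largest fold change of all 35 genes and narrowly missed the threshold. MGMT moves an alkyl group from the oxygen of guanine onto its own cysteine and is used up in the act. *Mgmt* (chr7:136894614-137130266, the longest of these genes at 236 kb) was at 3.06, 3.17 and 3.24 FPKM in PBS and at 6.25, 4.50 and 6.21 FPKM in CTX. All CTX values exceeded all PBS values, and CTX sample 2 was the lowest of the 3. Its mean was 3.16 ± 0.0899 FPKM in PBS and 5.65 ± 1.00 FPKM in CTX (SD, n = 3), a fold change of 1.75 (1.37 to 2.22), with an adjusted p of 0.057. Without CTX sample 2 the log2 fold change was 0.96 in place of 0.81 and the adjusted p was 0.0036. Over the other 5 samples left out in turn, the adjusted p lay between 0.069 and 0.245.

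ALKBH2 and ALKBH3 strip methyl groups from the base-pairing face of adenine and cytosine by oxidation, the first from double-stranded and the second mainly from single-stranded DNA. *Alkbh2* was at 8.05, 7.39 and 9.03 FPKM in PBS and 6.78, 6.93 and 7.31 FPKM in CTX. The groups did not overlap, but the highest CTX value was close to the lowest PBS value, and the fold change of 0.863 (0.738 to 1.01) had an adjusted p of 0.274. *Alkbh3* was at 6.93, 7.22 and 7.84 FPKM in PBS and 6.50, 7.17 and 8.43 FPKM in CTX (1.00, 0.828 to 1.21, adjusted p = 0.997). The CTX samples of *Alkbh3* lay on both sides of the PBS samples.

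The promoters of the called gene, of the gene with the largest rise and of the gene with the largest fall are shown for their composition and motifs. They come from RefSeq (GRCm38.p6), on the plus strand, each 250 bases before the annotated start site and 30 bases from it on, at chr17:87974800-87975079 (*Msh6*), chr7:136894336-136894615 (*Mgmt*) and chr7:19381767-19382046 (*Ercc2*). Capitals mark matches to the motifs searched.
Msh6: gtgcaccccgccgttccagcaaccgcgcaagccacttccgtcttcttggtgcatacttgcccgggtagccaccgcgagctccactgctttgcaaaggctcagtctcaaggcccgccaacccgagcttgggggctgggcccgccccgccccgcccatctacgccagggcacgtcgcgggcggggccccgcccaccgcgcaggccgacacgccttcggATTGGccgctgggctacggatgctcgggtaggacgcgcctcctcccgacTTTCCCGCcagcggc
Mgmt: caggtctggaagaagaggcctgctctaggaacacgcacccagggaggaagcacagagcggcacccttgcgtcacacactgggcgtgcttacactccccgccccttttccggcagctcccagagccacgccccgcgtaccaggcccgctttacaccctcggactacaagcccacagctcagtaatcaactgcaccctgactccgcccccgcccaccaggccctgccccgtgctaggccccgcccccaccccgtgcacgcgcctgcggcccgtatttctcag
Ercc2: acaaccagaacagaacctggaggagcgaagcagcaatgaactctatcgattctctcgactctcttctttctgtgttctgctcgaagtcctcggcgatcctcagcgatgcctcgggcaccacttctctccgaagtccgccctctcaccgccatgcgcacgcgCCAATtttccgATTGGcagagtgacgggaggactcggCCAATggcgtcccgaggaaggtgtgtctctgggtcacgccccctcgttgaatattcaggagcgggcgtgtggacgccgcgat
The *Msh6* window held an E2F motif, TTTCCCGC, 15 bases past the start site, and a CCAAT box on the other strand 34 bases before it. The *Ercc2* window held 3 CCAAT boxes, 89, 78 and 52 bases before the start. The *Mgmt* window shown, 1 of 2 annotated for that gene, held none of the motifs searched.

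Windows of 300 bases (250 before the start and 50 after) were found in that table for 31 of the 35 genes. *Ddb2*, *Xpc*, *Ercc3* and *Polb* had no entry. *Gtf2h5*, *Mgmt* and *Mutyh* had 2 windows each, of which 1 is described here. The GC content of the 31 windows had a median of 62.3%, beside 52.7% of all 32817 promoters, and ranged from 49.3% to 71.7%. CCAAT boxes (CCAAT, either strand) were in 16 of the 31 (51.6%, beside 37.4% of all promoters). The E2F motif TTTCCCGC was in 1 (*Msh6*; 1.07% of all promoters), TTTCGCGC in 2 (*Nthl1* and *Msh3*; 0.323%) and TTTGGCGC in 1 (*Msh3*; 0.515%). The p53 decamer was in 2 (*Cetn2* and *Neil1*; 6.45%, beside 8.36% of all promoters). The CRE motif TGACGTCA was in 1 (*Tdg*; 1.79% of all) and the AP-1 motif TGACTCA in 1 (*Gtf2h4*; 5.20% of all). Each is a match of letters in a window and says nothing of binding.

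No gene of damage recognition in nucleotide excision repair passed the test, beside 1.76% of all genes called. XPC, with RAD23B and CETN2, senses a distorted helix, the DDB1 and DDB2 pair recognises lesions such as those of ultraviolet light, and XPA checks the lesion. All 6 genes overlapped between the groups, while 15.0% of all genes lay above and 14.1% below without overlap. Fold changes of the 6 ran from 0.960 (*Cetn2*) to 1.11 (*Ddb2*), with limma adjusted p from 0.502 to 0.886. *Ddb1* had the highest level of all 35 genes, at 180.0, 172 and 177 FPKM in PBS and 177, 211 and 180.4 FPKM in CTX. DDB1 also serves as an adaptor of ubiquitin ligases outside repair. CTX sample 2 alone was above the PBS range by more than 1 FPKM, and the fold change was 1.07 (0.925 to 1.24, adjusted p = 0.541).

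*Ddb2* and *Xpc* are induced by p53 in human cells. *Ddb2* was at 2.77, 3.01 and 2.59 FPKM in PBS and at 2.40, 3.98 and 3.16 FPKM in CTX. CTX sample 1 was the lowest of the 6 and CTX sample 2 the highest, so the CTX range enclosed the PBS range. The fold change was 1.11 with an interval of 0.812 to 1.53 (adjusted p = 0.659), and without CTX sample 2 the log2 fold change was -0.02. *Xpc* was at 4.73, 5.03 and 5.24 FPKM in PBS and 5.27, 5.16 and 4.83 FPKM in CTX, a fold change of 1.02 (0.886 to 1.17, adjusted p = 0.886). These intervals reach neither a doubling nor a fall to 0.5 of the PBS level. The changes of *Cdkn1a*, *Mdm2* and *Ccng1* in the same samples, on the log2 scale, were 2.65, 0.87 and 2.18. *Rad23b* (1.06, 0.947 to 1.19), *Xpa* (1.04, 0.885 to 1.22) and *Cetn2* (0.960, 0.828 to 1.11) also had intervals that include 1.

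**Figure D3:**
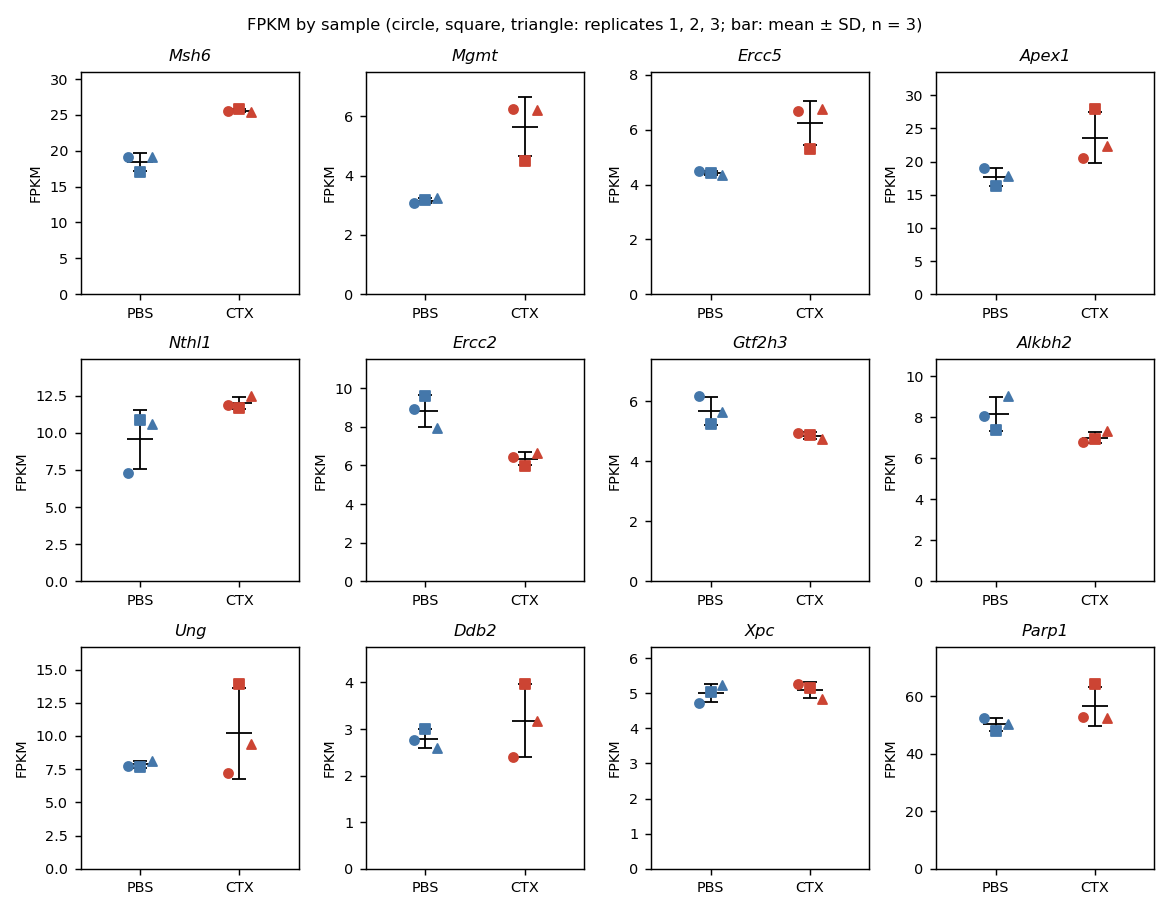
FPKM of 12 repair genes in each sample, PBS in blue and CTX in red, each axis starting at 0. Circle, square and triangle mark replicates 1, 2 and 3, and bars the mean ± SD (n = 3). *Msh6*, *Mgmt*, *Ercc5*, *Apex1* and *Nthl1* have all CTX points above all PBS points, and *Ercc2*, *Gtf2h3* and *Alkbh2* all below. For *Ung*, CTX replicate 2 stands apart at 13.9 FPKM.

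The transcription-coupled branch, in which ERCC6 and ERCC8 act at a stalled RNA polymerase, was expressed at the lowest levels. *Ercc6* was at 2.00, 2.28 and 1.94 FPKM in PBS and 1.82, 1.91 and 2.00 FPKM in CTX (fold change 0.925, 0.755 to 1.13, adjusted p = 0.622). *Ercc8* was at 1.55, 2.03 and 2.07 FPKM in PBS and 1.68, 2.24 and 1.72 FPKM in CTX (0.997, 0.739 to 1.34, adjusted p = 0.992). The groups overlapped for both genes, as for most of all genes tested. *Ercc8* (mean 1.88 FPKM), *Ercc6* (1.99 FPKM) and *Pms2* (2.12 FPKM) were the 3 lowest of the 35, and their ranges over samples overlapped, so their order is not set.

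TFIIH opens the helix around a lesion and also starts transcription. Its helicase subunit *Ercc2* (chr7:19382010-19395694) showed the largest fall of the 35 genes. It was at 8.93, 9.57 and 7.92 FPKM in PBS and at 6.46, 5.96 and 6.63 FPKM in CTX. The groups were apart by more than 1 FPKM, with CTX sample 2 the lowest of the 6. The mean was 8.81 ± 0.834 FPKM in PBS and 6.35 ± 0.346 FPKM in CTX (SD, n = 3), a fold change of 0.725 (0.618 to 0.851), with an adjusted p of 0.080, which misses the threshold. Of the exon bases annotated to *Ercc2*, 42.7% also lie in exons of 3 other genes. The one sharing most (*Gm26852*, on the other strand) was at 0.403 FPKM, and the levels of the others are not given here. How strand was treated in library preparation and counting is not given in the sources used here, so reads from such stretches may belong to either gene.

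*Gtf2h3*, a core subunit, was at 6.17, 5.24 and 5.64 FPKM in PBS and 4.96, 4.88 and 4.74 FPKM in CTX. All CTX values lay below all PBS values, by a gap smaller than the PBS spread, and the fold change was 0.859 (0.742 to 0.995, adjusted p = 0.245). The other helicase, *Ercc3*, had the highest mean level of the 7 TFIIH genes, at 17.1, 17.1 and 15.8 FPKM in PBS and 16.9, 17.3 and 16.0 FPKM in CTX (1.01, 0.899 to 1.13, adjusted p = 0.957). *Gtf2h1* was at 15.1, 14.5 and 14.8 FPKM in PBS and at 14.2, 19.9 and 16.3 FPKM in CTX, again highest in CTX sample 2 (1.12, 0.912 to 1.38, adjusted p = 0.471). The core subunits *Gtf2h2* (1.04), *Gtf2h4* (0.988) and *Gtf2h5* (1.01) had adjusted p of 0.733 to 0.970. Of the 7 genes, 4 had positive and 3 negative log2 fold changes, and the signs of *Ercc3*, *Gtf2h4* and *Gtf2h5*, all near 0, turned under other settings.

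*Ercc5* encodes the nuclease that cuts on the 3' side of a lesion. *Ercc5* (chr1:44147744-44181260) was at 4.48, 4.42 and 4.36 FPKM in PBS and at 6.67, 5.32 and 6.76 FPKM in CTX. The PBS values were nearly equal, and CTX sample 2 was the lowest of its group, as for *Mgmt*. The mean was 4.42 ± 0.0598 FPKM in PBS and 6.25 ± 0.809 FPKM in CTX (SD, n = 3), a fold change of 1.40 (1.16 to 1.68), with an adjusted p of 0.105. Without CTX sample 2 the adjusted p was 0.015, and over the other 5 samples left out in turn it lay between 0.108 and 0.360. No exon base of *Ercc5* or *Mgmt* was shared with another gene.

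The leaving out of CTX sample 2 thus added *Mgmt* and *Ercc5* to *Msh6*, 3 called higher and 0 lower, beside 2.48% and 1.15% of all genes called in that fit. Genes with all CTX samples above all PBS samples were then 6 (17.1%, beside 19.3%), and those below were 5 (14.3%, beside 19.3%).

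**Figure D4:**
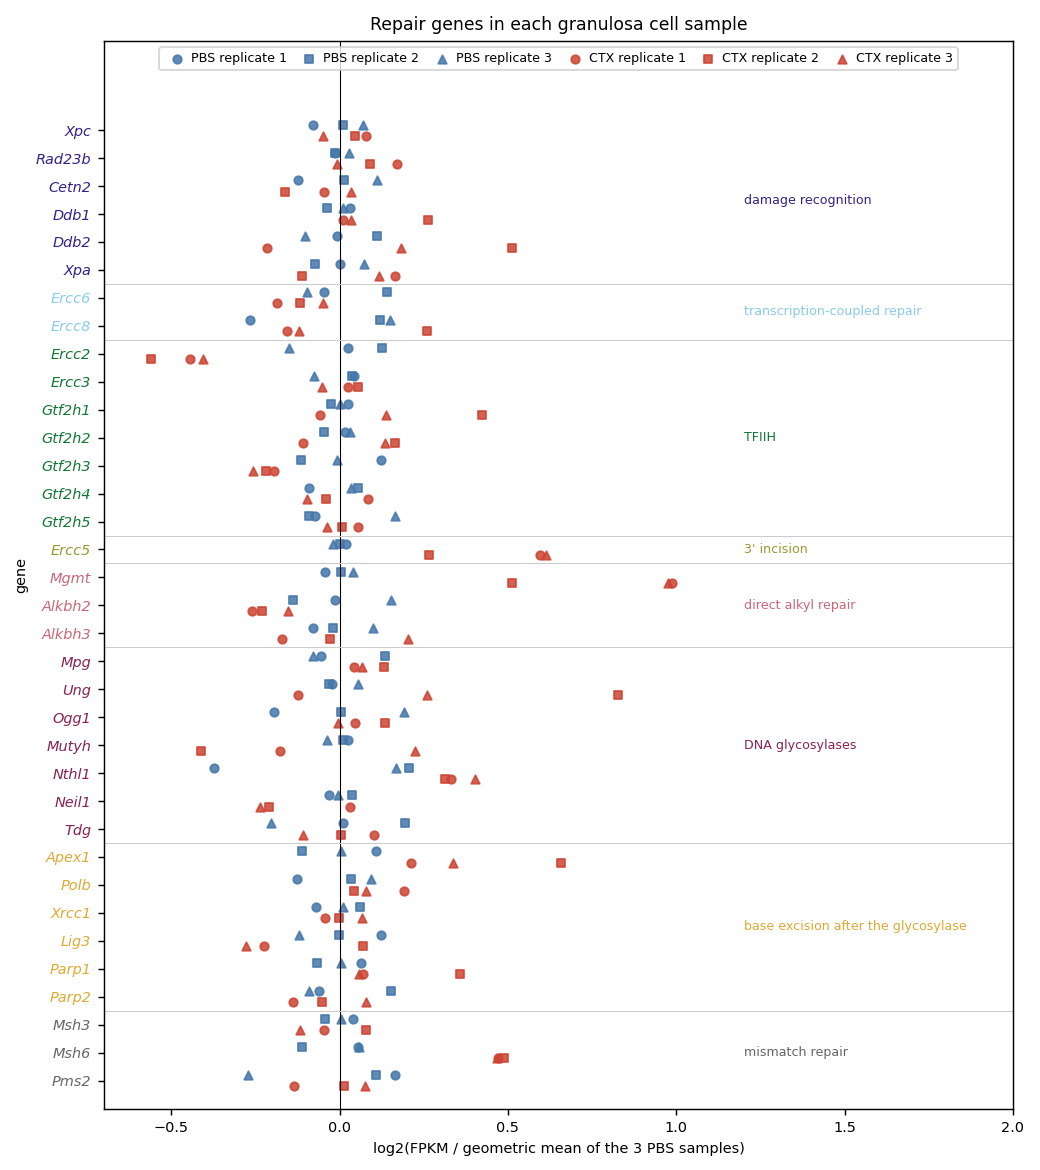
Log2 of FPKM over the geometric mean of the 3 PBS samples, for each repair gene by role, PBS in blue and CTX in red, with 1 symbol per replicate number. CTX replicate 2 (red squares) is the far right point for *Ung*, *Apex1*, *Ddb2*, *Gtf2h1* and *Parp1* and the lowest CTX point for *Mgmt*, *Ercc5* and *Ercc2*.

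The 7 DNA glycosylases each remove a class of damaged base. *Nthl1*, for oxidised pyrimidines, had the highest mean of them, at 7.27, 10.9 and 10.6 FPKM in PBS and 11.9, 11.7 and 12.5 FPKM in CTX. The groups did not overlap, but PBS sample 1 was far below the other PBS samples, and the fold change of 1.27 had an interval of 0.974 to 1.66 (adjusted p = 0.286). Without PBS sample 1 its log2 fold change was 0.16 in place of 0.35. *Ung*, which removes uracil, was at 7.74, 7.69 and 8.15 FPKM in PBS and at 7.22, 13.9 and 9.41 FPKM in CTX. CTX sample 1 lay below all PBS samples and CTX sample 2 far above them, the fold change was 1.25 (0.854 to 1.82, adjusted p = 0.453), and the log2 fold change of 0.32 was 0.07 without CTX sample 2 and 0.54 without CTX sample 1 (adjusted p = 0.795 and 0.126).

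*Mpg*, the glycosylase for alkylated purines, was at 2.99, 3.42 and 2.95 FPKM in PBS and at 3.21, 3.41 and 3.26 FPKM in CTX. The CTX values lay inside the PBS range (1.06, 0.894 to 1.25, adjusted p = 0.673). *Mpg* shares 35.7% of its exon bases with *Nprl3* on the other strand. *Ogg1*, which removes oxidised guanine, was at 5.21 to 6.80 FPKM over the 6 samples (1.04, 0.861 to 1.26), and *Mutyh*, which removes adenine paired with it, at 2.57 to 4.0 FPKM (0.922, 0.699 to 1.22). *Neil1*, for oxidised pyrimidines, was at 6.65 to 8.05 FPKM (0.909, 0.778 to 1.06). *Tdg*, for thymine and uracil opposite guanine, was at 3.58 to 4.73 FPKM (1.00, 0.811 to 1.23). Their adjusted p ran from 0.433 to 1.00.

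After a glycosylase, APEX1 cuts the strand at the empty sugar, POLB fills the gap, and XRCC1 with LIG3 seals it, while PARP1 and PARP2 sense the break. *Apex1* was at 19.1, 16.4 and 17.8 FPKM in PBS and at 20.5, 27.9 and 22.4 FPKM in CTX. All CTX values were above all PBS values, CTX sample 2 by the most, and the mean was 17.7 ± 1.36 FPKM in PBS and 23.6 ± 3.86 FPKM in CTX (SD, n = 3), a fold change of 1.32 (1.07 to 1.64), with an adjusted p of 0.180. *Apex1* shares 61.7% of its exon bases with *Pip4p1* on the other strand, which was at 8.04 FPKM with a log2 fold change of -0.20 (adjusted p = 0.237). What part of the *Apex1* value comes from *Pip4p1* was not tested.

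*Parp1* had the highest mean of these 6 genes and the next highest of all 35 after *Ddb1*. It was at 52.5, 47.9 and 50.4 FPKM in PBS and at 52.7, 64.5 and 52.3 FPKM in CTX, with only CTX sample 2 well above the PBS range (1.12, 0.948 to 1.32, adjusted p = 0.394). *Xrcc1*, the scaffold, was at 12.3 to 13.5 FPKM over the 6 samples (1.01, 0.896 to 1.13). *Polb* was at 4.73 to 5.90 FPKM (1.07, 0.920 to 1.25), *Parp2* at 11.2 to 13.7 FPKM (0.974, 0.829 to 1.14) and *Lig3* at 7.94 to 10.5 FPKM (0.905, 0.743 to 1.10). The adjusted p of these 4 ran from 0.512 to 0.965. For the 5 genes of this step other than *Apex1* the groups overlapped, as for most of all genes tested.

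**Figure D5:**
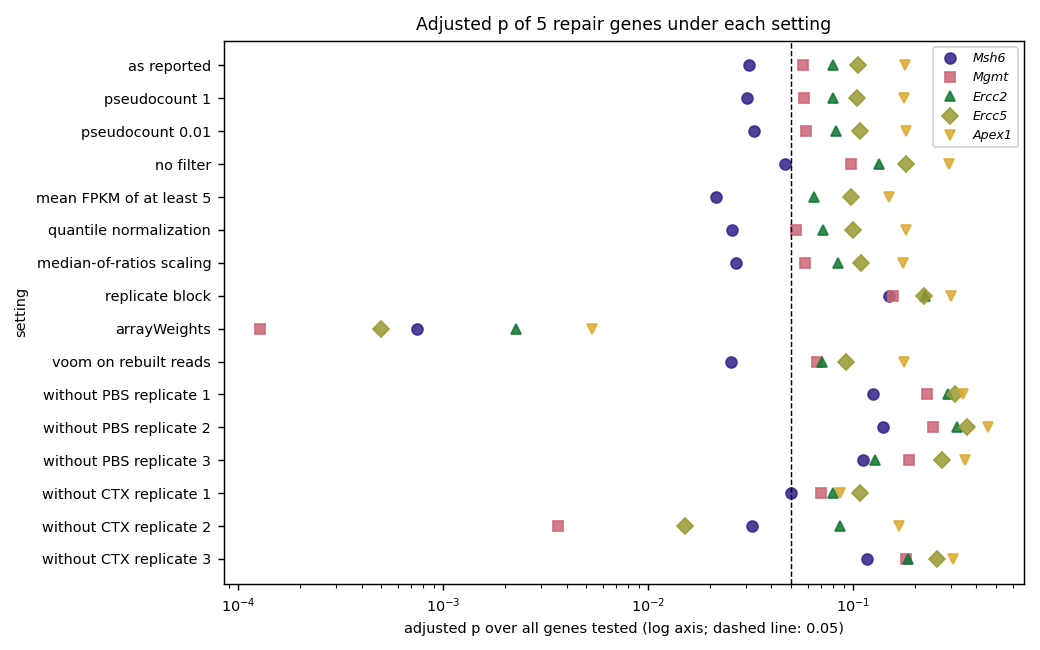
Adjusted p over all genes tested, on a log axis, of *Msh6*, *Mgmt*, *Ercc2*, *Ercc5* and *Apex1* under the reported fit and 15 alternatives, with a dashed line at 0.05. *Msh6* lies left of the line in 10 of the 15 alternatives, while *Mgmt* and *Ercc5* lie left of it with sample weights (arrayWeights) and without CTX replicate 2, and *Ercc2* and *Apex1* with sample weights only. *Mgmt* has no point at the filter of a mean of 5 FPKM, which it does not reach.

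The same pathways hold 40 further genes, listed by role, none of which was called (limma). At an unadjusted p below 0.05 there were 10 of the 40, beside 19.6% of all genes, 6 higher and 4 lower, and voom called 0, beside 1.54% higher and 0.456% lower of all genes. The groups did not overlap for 13 of them, 8 higher in CTX (20.0%) and 5 lower (12.5%), beside 15.0% and 14.1% of all genes, and their median log2 fold change was 0.05. In nucleotide excision (15 genes), the largest rise was that of *Mnat1*, a subunit of the TFIIH kinase, from 4.03 ± 0.0846 to 5.24 ± 0.177 FPKM (SD, n = 3; log2 0.37, adjusted p = 0.079). The largest fall there was that of *Ercc1*, a subunit of the nuclease that cuts on the 5' side (log2 -0.38, adjusted p = 0.155). In base excision (14 genes), *Lig1*, the replicative ligase, was at 30.1 ± 1.70 and 37.2 ± 1.08 FPKM (log2 0.31, adjusted p = 0.093), and the glycosylase *Neil2* at 1.22 ± 0.0239 and 0.795 ± 0.273 FPKM (log2 -0.61, adjusted p = 0.287). Among 4 genes of gap filling, all with positive log2 fold changes, *Pcna*, the sliding clamp, was at 66.7 ± 3.57 and 86.7 ± 4.79 FPKM (log2 0.38, adjusted p = 0.073). All 3 mismatch genes had positive values, the largest that of *Pms1* (log2 0.42, adjusted p = 0.405). The 4 genes of direct alkyl repair ran from -0.16 (*Ascc2*) to 0.15 (*Ascc1*).

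Several of these genes, *Msh6*, *Ung*, *Lig1* and *Pcna* among them, are known to be expressed with DNA replication. The summed level of 12 S phase genes was 297 to 315 FPKM in the PBS samples and 360 to 383 FPKM in the CTX samples. Of the 12, 11 had a higher mean in CTX. The CTX samples lay above the PBS samples without overlap for 5, beside 15.0% of all genes, and none was called (limma), beside 1.40% of all genes called higher. Their median log2 fold change was 0.22, and the largest were those of *Rrm2* (0.76, adjusted p = 0.073) and *Mcm6* (0.39, adjusted p = 0.257). The part of this list, and of the cell type markers above, in the values of the repair genes was not tested.

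The spread within groups differed between repair genes. It was over 10 times as wide in CTX as in PBS for *Ung* (SD 3.43 against 0.254 FPKM), *Mgmt*, *Ercc5* and *Gtf2h1*, in each of which CTX sample 2 lay apart from the other CTX samples. Over the 35 genes, the SD of log2 FPKM had a median of 0.10 in PBS and 0.11 in CTX, and was wider in CTX for 17 of the 35 genes, beside 69.4% of all genes tested. CTX sample 2 held the highest value of the 6 for 11 repair genes and the lowest for 4, while over all genes it was the highest for 29.9% and the lowest for 28.2%. The genes spanned 2.17 to 236 kb with a median of 24.0 kb. Span and log2 fold change had a Spearman rho of 0.22 across these 35 genes, which share the same 6 libraries and are not independent replicates. Of the 35, 16 shared exon bases with another annotated gene, 7 of them over 10%: *Apex1*, *Ercc2*, *Mpg*, *Alkbh2* (29.5%), *Lig3* (25.1%), *Ddb2* (23.8%) and *Ogg1* (10.6%). *Msh6* shared 0.782%.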

How the data were processed

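RNA-seq was performed on 6 samples of GCs, 3 after PBS and 3 after CTX. The authors deposited 1 table of FPKM values per gene and sample, with columns of their own comparison (means, log2 ratios and p-values), which were not used. Per the submitters' processing notes, the tools were CASAVA 1.8, fastp, HISAT2 2.0.5, featureCounts 1.5.0-p3 and DESeq2 1.20.0, and the build was mm10; parameters are not given in the sources used here. No column of another sample was present.

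FPKM multiplied by gene length gave whole reads for 100% of values (within 0.02 read), which gave the depth of each sample and the reads for voom. The FPKM were taken as log2(FPKM + 0.1), so that fold changes of low genes are understated, and 14463 genes with a mean of at least 0.5 FPKM were tested with limma 3.58.1 in R 4.3.3 (lmFit, eBayes with trend) with Benjamini-Hochberg adjustment over all of them. Fold changes and their 95% intervals come from this fit. Calls were made at an adjusted p below 0.05. The threshold of the study, which adds a change of more than 2-fold, was given beside it. Exons came from GENCODE M21, which held 54409 of the 54532 gene identifiers, 98.3% with the same start and end. It held all 35 repair genes, 32 of them with the same start and end. Promoters came from RefSeq.

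The genes, the lists and the rules were chosen with earlier results of these data known. All 35 genes are named. Values in every sample are given for genes called, genes whose groups did not overlap and the highest gene of each role, and for some others chosen after their values were seen. A further gene is named where it showed the largest rise or fall of its list. The labels number the samples 1 to 3 in each group, but each holds different mice. Same-numbered samples had deviations correlated at 0.0058 to 0.056, below 0.1, so the numbers were not taken as pairs. The code was tested on simulated data. Alternatives were other pseudocounts (1 and 0.01), filters (none, and a mean of 5 FPKM) and scalings, sample weights, a replicate block, voom and leaving out each sample.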

Additional observations from a re-analysis of the deposited data

How the results depend on the processing

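Across 15 alternatives, 454 of 516 values of the repair genes kept their sign and their side of the threshold, 45 changed sign (in 15 genes whose log2 fold change was at most 0.16 in size), 5 lost the call and 12 gained it. All 5 losses were those of *Msh6*. Repair genes called higher numbered 0 with a replicate block, in place of 1. They numbered 7 with sample weights, beside 19.4% of all genes, and 0 to 3 when a sample was left out. The 3 came without CTX sample 2, beside 2.48% of all genes, and none was left without PBS sample 1, 2 or 3 or CTX sample 3. Of all 14463 genes, the fits with a sample left out called 70 to 526 in either direction, in place of 254. Repair genes called lower numbered 4 with sample weights, in place of 0, beside 20.4% of all genes. In that fit 18 of the 40 further genes were called, 10 higher and 8 lower. Of all genes, 19.4% were called higher and 20.4% lower. The weights, 0.163 for CTX sample 2 and 16.6 for CTX sample 3, came from a fit that did not converge. The replicate block, for numbers that do not pair the samples, gave *Msh6* an adjusted p of 0.150 and cut the genes called from 254 to 53. Repair genes called with a change of more than 2-fold stayed at 0 throughout. The median log2 fold change was 0.040 over the 26 repair genes that passed a filter at a mean of 5 FPKM. Their own fold changes were as in the reported fit. With sample weights the median was 0.038, and it was 0.0040 to 0.058 when a sample was left out. The cause of the differences under the other settings was not tested.

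The sign turned for genes with small changes. Quantile normalization gave log2 fold changes of 0.024 (*Ercc8*), -0.014 (*Ercc3*), -0.013 (*Gtf2h5*), -0.0046 (*Alkbh3*), 0.0071 (*Tdg*), -0.016 (*Xrcc1*) and 0.011 (*Pms2*), and median-of-ratios scaling -0.00027 (*Alkbh3*). Sample weights gave -0.040 (*Xpc*), 0.042 (*Cetn2*), -0.064 (*Ercc3*), -0.0022 (*Gtf2h5*), 0.20 (*Mutyh*), 0.038 (*Parp2*) and 0.022 (*Pms2*). Leaving out 1 sample gave ranges of -0.014 to 0.061 (*Xpc*), -0.037 to 0.090 (*Gtf2h5*), -0.10 to 0.086 (*Alkbh3*), -0.038 to 0.15 (*Ogg1*), -0.10 to 0.10 (*Tdg*), -0.028 to 0.037 (*Xrcc1*), -0.15 to 0.063 (*Pms2*), -0.13 to 0.066 (*Ercc8*), -0.068 to 0.021 (*Gtf2h4*), -0.10 to 0.038 (*Parp2*), -0.030 to 0.039 (*Ercc3*), -0.015 to 0.34 (*Ddb2*), -0.29 to 0.023 (*Mutyh*) and -0.079 to 0.015 (*Msh3*). Depth limits most the genes with few reads, down to 115 reads in a sample for *Ddb2*.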
